A study of Mus musculus with 12 samples.

Results

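The cell cycle and proliferation genes described here are 42 genes chosen by name for their part in cell division: cyclins and their kinases, the E2F and RB switch, the MCM helicase, nucleotide supply, mitotic proteins and chromosome proteins. They were found by symbol in RNA sequencing of spinal cord, where 35 of the 42 were among the 13957 gene symbols listed at either of 2 sites. Of these, 30 were listed above the lesion (of 13645 genes), 34 below it (of 12337 genes) and 29 at both. TOP2A was listed above the lesion alone, and CDK6, MCM5, TYMS, CDK1 and PLK1 below it alone. UHRF1, MKI67, CCNB1, CCNB2, UBE2C, CDC20 and AURKB were listed at neither site, which says nothing of their level. No listed member had a value of 0.

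The tissue came from male mice, 4 months old when assigned to groups, that express human ApoE4, 14 days after a contusion at thoracic level 9. The 4 groups were synj1+/+ above, synj1+/- above, synj1+/+ below and synj1+/- below the lesion, with 3 libraries each, and synj1+/- mice carry 1 inactive allele of the gene for synaptojanin 1. The comparison asks how the transcriptome of injured ApoE4 cord differs when synj1 is genetically reduced. All libraries came from injured ApoE4 mice, and uninjured and ApoE3 cords were not analysed here.

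Quiescent cells enter the cycle when D cyclins activate CDK4 and CDK6, RB releases E2F, and E2F drives genes for cyclin E and DNA replication. The MCM proteins then unwind DNA, PCNA holds the polymerases on it, and CDK1 with A and B cyclins brings the cell into mitosis. After a spinal cord contusion, microglia, infiltrating macrophages, astrocytes, oligodendrocyte precursors, ependymal cells, endothelial cells and fibroblasts can all divide, whereas neurons do not. Several of these genes, among them the D cyclins and stathmin, are also used by cells that are not dividing.

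Many cell cycle genes share short promoter letters: E2F sites before replication genes, and the cell cycle genes homology region (CHR), often beside CCAAT boxes, before mitotic genes. In RefSeq windows of GRCm38.p6 from 250 bases before to 50 bases after the start, found for 32 of the 42 members, the letters TTTGAA of the CHR were searched for on both strands. They were in 12 members (37.5%), against 20.2% of 27025 genes with a window and 13.7% of the 11002 of these that were listed. Of 11 G2 and mitosis members with a window, 9 held them. The E2F letters TTTCCCGC, TTTCGCGC, TTTGCCGC or TTTGGCGC were in 7 of the 32 members (21.9%), against 2.6% of all genes and 4.45% of listed genes, and in 4 of 5 MCM genes. CCAAT was in 25 of the 32 (78.1%), against 41.1% of all genes. Overlaps between motifs were allowed, and a match is a description of the letters, not of a bound site.

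The promoter stretches below belong to the members that differed past the limit defined further on (25% higher or 20% lower in synj1+/-) at 1 of the sites or both and hold a CHR or an E2F match before the start. Capitals mark CHR, E2F and CCAAT letters on either strand, and E2F matches that overlap run together, as in MCM5 and MCM6. Each reads 5′ to 3′ in the direction of transcription. They lie at chr8:75109316-75109407 (plus strand) for MCM5, chr1:128359706-128359855 (minus) for MCM6, chr6:88898805-88898890 (minus) for MCM2, chr10:69352913-69353083 (minus) for CDK1, chr10:128705144-128705231 (minus) for CDK2 and chr8:57511593-57511842 (plus) for HMGB2.
MCM5: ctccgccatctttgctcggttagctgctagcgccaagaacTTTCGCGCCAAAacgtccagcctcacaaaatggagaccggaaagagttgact
MCM6: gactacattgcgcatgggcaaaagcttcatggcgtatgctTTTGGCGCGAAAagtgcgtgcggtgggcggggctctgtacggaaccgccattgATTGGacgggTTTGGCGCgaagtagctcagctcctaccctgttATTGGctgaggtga
MCM2: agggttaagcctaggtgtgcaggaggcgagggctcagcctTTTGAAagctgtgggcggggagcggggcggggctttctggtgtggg
CDK1: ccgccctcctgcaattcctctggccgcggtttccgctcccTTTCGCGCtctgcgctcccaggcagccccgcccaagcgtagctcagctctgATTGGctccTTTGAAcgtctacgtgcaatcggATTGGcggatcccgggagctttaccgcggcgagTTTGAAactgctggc
CDK2: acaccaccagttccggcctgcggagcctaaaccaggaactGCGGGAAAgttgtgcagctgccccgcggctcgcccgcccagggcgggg
HMGB2: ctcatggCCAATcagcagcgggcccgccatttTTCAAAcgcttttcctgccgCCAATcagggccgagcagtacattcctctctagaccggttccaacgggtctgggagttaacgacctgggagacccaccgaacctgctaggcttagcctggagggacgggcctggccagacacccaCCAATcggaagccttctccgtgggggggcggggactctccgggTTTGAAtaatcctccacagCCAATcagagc
The 2 MCM stretches with E2F letters, MCM5 and MCM6, carry an overlapping pair of E2F matches on opposite strands, while MCM2 has CHR letters and no E2F match. MCM3 holds 2 E2F matches, both within the first 50 bases after the start, and PLK1 a CHR match there. BIRC5, TK1, CDK6 and CCNE1 had a window with no CHR or E2F match.

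Values are given as FPKM, which scales reads by transcript length and library size, so genes can be compared in level. The authors combined the 3 libraries of a group into 1 value and set the scale by the upper quartile within each site. The spread between libraries is therefore unknown, no difference below has an error or a test, and each difference is that of 2 group values. A gene was called lower or higher in synj1+/- when its FPKM plus 1 was at least 25% higher or 20% lower there, a log2 ratio of at least 0.32 in size. All log2 ratios are of synj1+/- over synj1+/+ on this scale, which understates the ratio of genes at a few FPKM.

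Transcripts of SYNJ1 itself ran against the genotype labels. SYNJ1 measured 1904 FPKM in synj1+/+ and 2403 in synj1+/- above the lesion, and 1846 and 2592 below, log2 ratios of 0.34 and 0.49. Directions below are therefore those of the group labelled synj1+/-. The transcript total does not show whether an allele is active. Neuronal SNAP25 and astrocytic GFAP, at 5238 and 12974 FPKM above the lesion in synj1+/+, were abundant in the labelled tissue. The myelin genes MBP, MAG and CNP were not listed at either site, and of 8 T and B lymphocyte markers none was listed.

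Most members were expressed at a low level. Above the lesion the median member had 8.36 FPKM in synj1+/+ and 10.3 in synj1+/-, against 35.5 for the median listed gene in synj1+/+, and 22 of 30 members were in the lowest 2 of 5 equal classes of genes by level. Below the lesion 24 of 34 members were there. Genes at this level scatter more: below the lesion 16.5% of all genes in the lowest 2 classes were lower past the limit, against 8.21% of the genes above them.

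**Figure D1:**
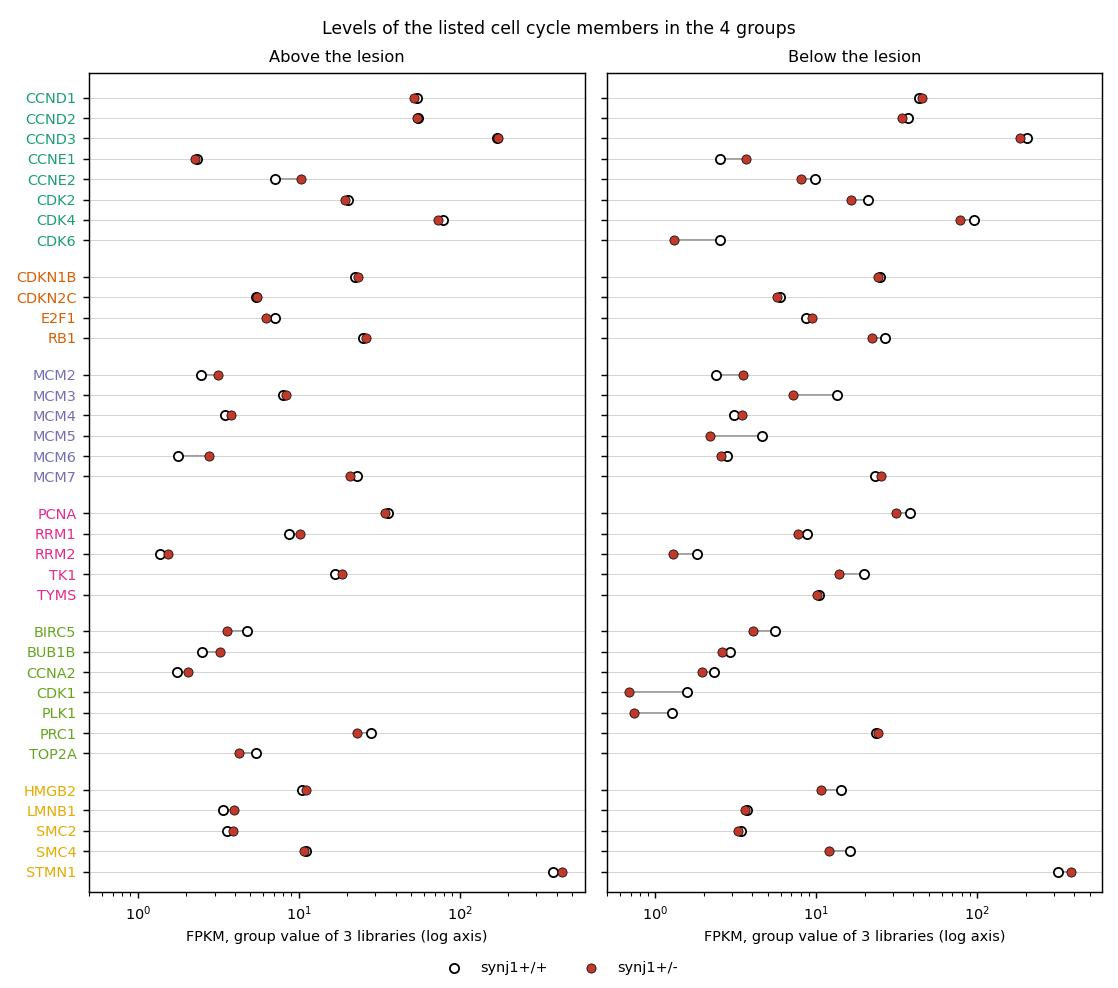
FPKM (log axis) of each listed member in synj1+/+ (open) and synj1+/- (red) above and below the lesion, each point being 1 group value of 3 libraries; names are coloured by role. STMN1 and CCND3 had the highest levels at both sites, and the widest gaps below the lesion, MCM3, MCM5, CDK6 and CDK1, belong to members of at most 13.4 FPKM.

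Above the lesion, most listed members stayed within the limit, though without a spread between libraries equality cannot be shown. Of 30 listed members, 1 was lower in the group labelled synj1+/- (BIRC5), 2 were higher (CCNE2 and MCM6) and 27 stayed within the limit. Among all genes there, 7.44% were lower and 4.18% higher. The median log2 ratio of the members was 0.05, against -0.00 for all genes, with 18 members above 0 and 12 below.

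Below the lesion, 10 of 34 listed members (29.4%) were lower in the group labelled synj1+/- and 2 were higher, against 11.5% of all genes lower and 8.07% higher. The 10 were CDK2, CDK6, MCM3, MCM5, TK1, CDK1, PLK1, BIRC5, HMGB2 and SMC4, and the 2 were CCNE1 and MCM2. Of the 10, CDK1, PLK1, CDK6 and MCM5 were listed below the lesion alone, and the 29 members listed at both sites gave 6 lower. Every gene listed below the lesion had at least 1.21 FPKM in 1 of the genotypes. CDK1 and PLK1 were under that value in synj1+/-, so they were listed through synj1+/+ alone, where they were high, and had to lean this way. Without genes under it in either genotype, an alternative chosen after seeing the data, 8 of 32 members were lower, against 11.0% of such genes. The median member had a log2 ratio of -0.15, against 0.01 for all genes, and 26 of the 34 (76.5%) lay below 0, against 47.2% of all genes. All 10 were among the 24 members in the lowest 2 level classes, where 20 of 24 members lay below 0, against 51.8% of all such genes. The 10 members at higher levels were all within the limit. At a limit of 1.5-fold, 4 members were lower below the lesion (CDK1, CDK6, MCM3 and MCM5) and 0 higher, against 4.38% and 1.16% of all genes, and above it 0 were lower and 0 higher, against 1.93% and 0.791%. In bulk tissue, fewer cells of a type and less RNA per cell cannot be told apart.

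Single members seldom stood outside the scatter of genes of like level. Only MCM3 and MCM5 below the lesion were under the 5th percentile of genes in their level class, and only CCNE2 and MCM6 above the lesion were over the 95th. The remaining members at each site were inside that middle 90% range.

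**Figure D2:**
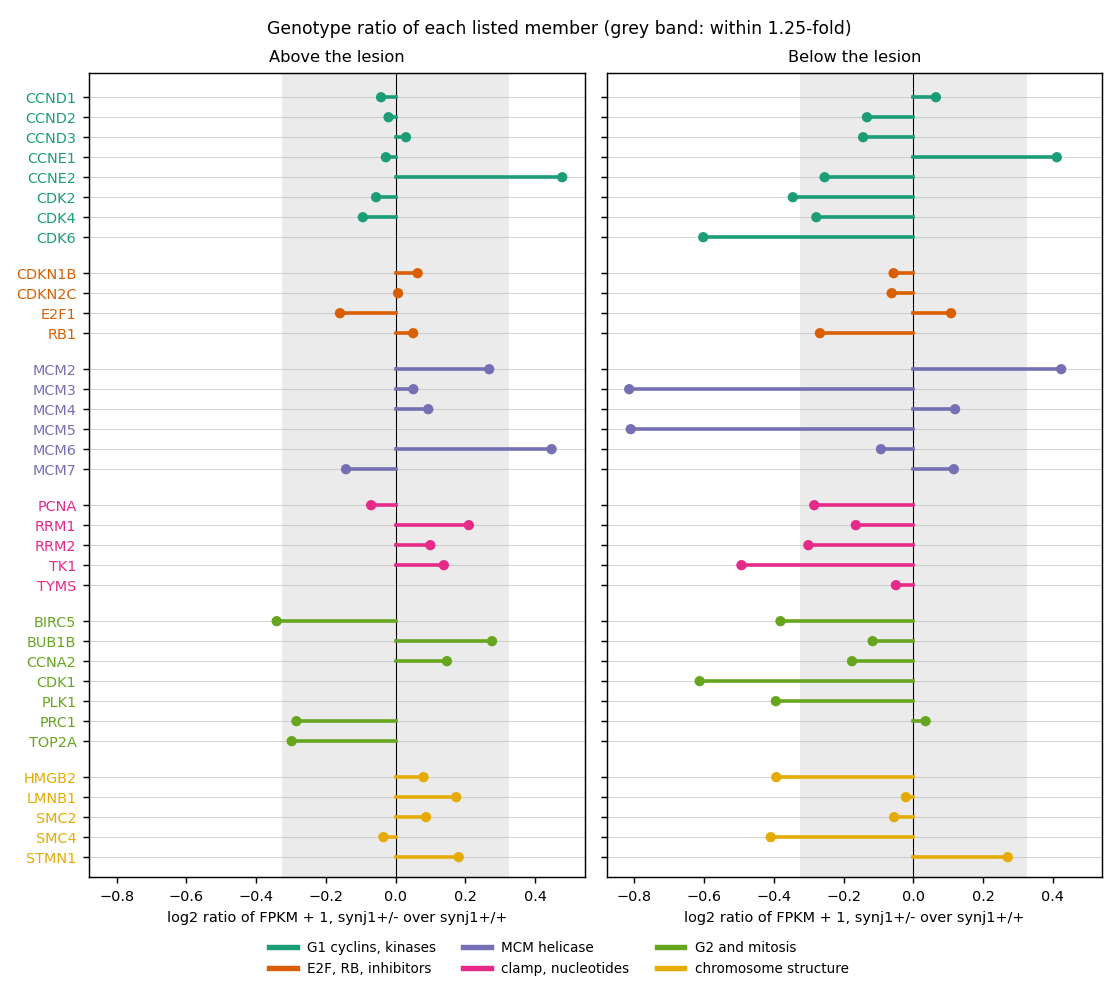
Log2 ratio of FPKM + 1 (x axis), synj1+/- over synj1+/+, for each listed member above and below the lesion, coloured by role; the grey band is the range within the limit of 0.32 in size and a blank row means not listed. Bars point to both sides above the lesion and mostly to the left below it, where 26 of 34 members lay below 0.

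Among the G1 cyclins, CCND1, CCND2 and CCND3, which partner CDK4 and CDK6, were among the higher members and hardly differed. CCND3, the most abundant, had 170.5 FPKM in synj1+/+ and 174 in synj1+/- above the lesion, and 204 and 185 below. CCND1 had 54.0 and 52.4 above and 43.5 and 45.6 below, and CCND2 54.8 and 54.0 above and 37.2 and 33.9 below. The largest difference among the D cyclins was thus a log2 ratio of -0.14, for CCND3 below the lesion.

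Of the G1 kinases, CDK2 and CDK6 were lower below the lesion and CDK4 was within the limit. CDK4 had 78.7 and 73.6 FPKM above and 95.4 and 78.5 below, a log2 ratio of -0.28. CDK2, the cyclin E and cyclin A kinase, had 20.3 and 19.5 above and 21.0 and 16.3 below (-0.35), just past it. CDK6 was listed below the lesion alone, with 2.5 FPKM in synj1+/+ and 1.31 in synj1+/- (-0.60).

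The E cyclins, which activate CDK2 at the start of S phase, differed by site. CCNE2 was higher in synj1+/- above the lesion, with 7.11 and 10.3 FPKM (0.48), and lower within the limit below, with 9.78 and 8.04 (-0.25). CCNE1 was level above, with 2.34 and 2.27 FPKM (-0.03), and higher below, with 2.51 and 3.67 (0.41). Over the 8 G1 members listed below the lesion, 2 were lower and 1 higher, with a median of -0.20.

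The 4 members of the E2F and RB switch and the CDK inhibitors were all within the limit at both sites. E2F1, the activating transcription factor, had 7.14 and 6.29 FPKM above and 8.62 and 9.37 below. RB1, which holds E2F in check, had 25.2 and 26.1 above and 26.8 and 22.1 below (-0.27). The inhibitor CDKN1B (p27) had 22.4 and 23.5 above and 25.0 and 24.0 below, and CDKN2C (p18) stayed between 5.45 and 5.98 in all 4 groups.

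The MCM genes encode 6 subunits that work as 1 hexamer, yet their transcripts differed in opposite directions below the lesion. MCM3 had 13.4 FPKM in synj1+/+ and 7.16 in synj1+/-, a log2 ratio of -0.81 that 3.04% of genes in its level class equalled or exceeded downwards. MCM5 had 4.60 and 2.19 (-0.81, as low in 4.86% of such genes). In contrast, MCM2 was higher, with 2.37 and 3.52 (0.42). MCM4, MCM6 and MCM7 stayed within the limit, at log2 ratios of 0.12, -0.09 and 0.12, so the 6 subunits had a median of 0.01.

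Above the lesion the pattern of subunits was another. MCM3 was level, with 7.99 and 8.31 FPKM (0.05), and MCM5 was not listed. MCM6 was higher, with 1.77 and 2.78 (0.45), and MCM2 was higher within the limit, with 2.46 and 3.17 (0.27). MCM7, the most abundant subunit in all 4 groups, had 23.1 and 20.9. Of the 5 listed subunits, 4 lay above 0.

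Genes for the replication clamp and nucleotide supply were all below 0 below the lesion, with a median of -0.28 over 5 members, and 1 passed the limit. TK1, the S phase thymidine kinase, had 19.7 FPKM in synj1+/+ and 13.7 in synj1+/- below the lesion (-0.49), but 16.9 and 18.7 above (0.14). PCNA, the sliding clamp, had 38.3 and 31.3 below (-0.28) and 36.0 and 34.3 above. RRM2, the cycle-regulated subunit of ribonucleotide reductase, had 1.81 and 1.28 below (-0.30) and 1.37 and 1.54 above.

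RRM1, the other subunit, had 8.70 and 7.65 FPKM below and 8.73 and 10.3 above, and TYMS (thymidylate synthase), listed below alone, had 10.4 and 10.1. Above the lesion TK1, RRM1 and RRM2 were on the higher side in synj1+/- and PCNA was not, with a median of 0.12.

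G2 and mitosis genes were the least often listed, with 5 of 13 above and 6 of 13 below the lesion. CDK1, the mitotic kinase, was listed below alone, with 1.58 FPKM in synj1+/+ and 0.687 in synj1+/- (-0.61). PLK1, which drives mitotic entry and spindle assembly, had 1.28 and 0.731 there (-0.39). These 2 were the lowest-expressed members below the lesion in synj1+/-.

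BIRC5 (survivin), a subunit of the chromosomal passenger complex, was the only member called at both sites. It had 4.80 and 3.58 FPKM above (-0.34) and 5.53 and 4.01 below (-0.38). TOP2A, the topoisomerase that untangles chromosomes, was listed above alone, with 5.45 and 4.25 (-0.30).

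PRC1, a spindle midzone protein and the highest of the group, had 28.1 and 22.9 FPKM above (-0.28) and 23.6 and 24.2 below (0.03). CCNA2 (cyclin A2) had 1.76 and 2.06 above and 2.32 and 1.94 below. The checkpoint kinase BUB1B had 2.49 and 3.23 above (0.28) and 2.90 and 2.60 below. The group median was -0.28 at both sites, from different sets of members.

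Of the chromosome structure and proliferation-linked proteins, HMGB2 and SMC4 were lower below the lesion. HMGB2, a DNA-bending protein, had 14.3 and 10.7 FPKM below (-0.39) and 10.4 and 11.1 above (0.08). SMC4, a condensin subunit, had 16.1 and 11.9 below (-0.41) and 11.1 and 10.8 above (-0.04). SMC2, with which SMC4 pairs in condensin, hardly differed, with 3.41 and 3.24 below and 3.60 and 3.89 above.

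STMN1 (stathmin), a microtubule-destabilising protein that neurons also express, was the highest of all members, with 383 and 434 FPKM above (0.18) and 318 and 384 below (0.27). It was 1 of 3 members on the higher side in synj1+/- at both sites. LMNB1 (lamin B1) had 3.41 and 3.97 above and 3.69 and 3.62 below.

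**Figure D3:**
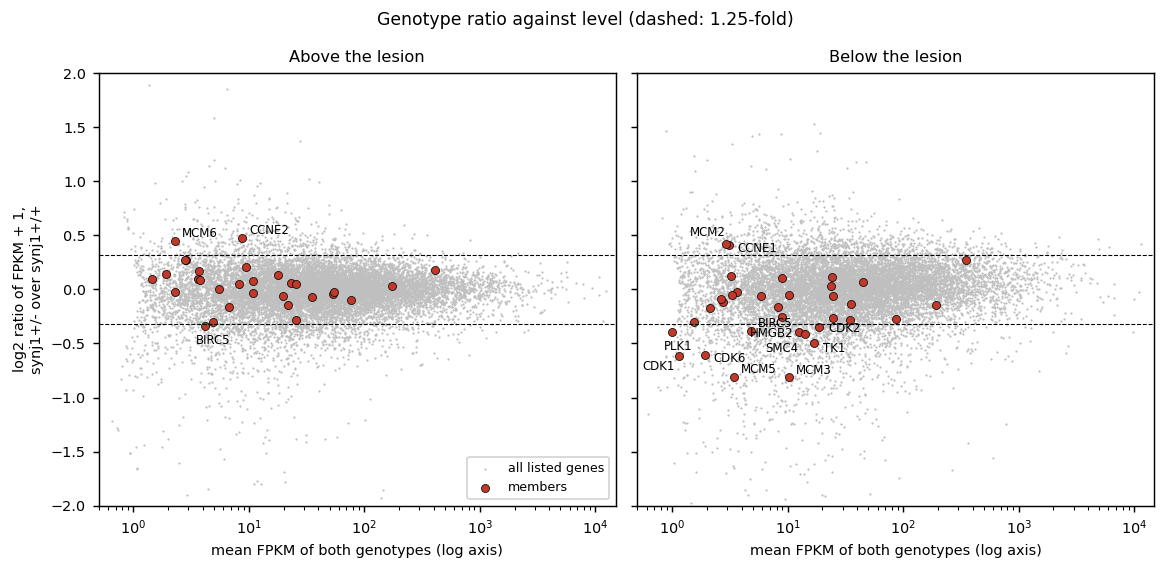
Log2 ratio of FPKM + 1, synj1+/- over synj1+/+, against the mean FPKM of both genotypes (log axis), for all listed genes (grey) and the members (red), with members past the dashed lines at 0.32 in size named. The named members sit at the low end of the level range, where grey points also spread most; 17 genes above and 24 below the lesion lie outside the plotted range.

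Set side by side, the 29 members listed at both sites mostly had a lower ratio below the lesion than above it. The ratio below was the smaller for 21 of 29 members, with a median difference of -0.18 in log2 ratio, against 0.02 for the 12025 genes listed at both sites, of which 46.1% had the smaller ratio below. By direction, 15 members were on the higher side above and the lower side below, 6 were on the lower side at both sites, 3 on the higher side at both and 5 lower above and higher below. In the same order, the counts among the 12025 genes were 2118, 3505, 3762 and 2640. The members whose ratios differed most between sites were MCM3 (-0.87), CCNE2 (-0.73) and TK1 (-0.63). This is a count of group values and not a test, and a mouse may have given both segments.

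Levels were also compared between sites within each genotype, although the sites were scaled separately, so each value was centred on the median of all genes. In synj1+/+ cord, members tended to be higher below than above the lesion, with a median log2 ratio of 0.11 and 21 of 29 members above 0. In synj1+/- cord they tended to be lower below, with a median of -0.13 and 18 of 29 members below 0. For MCM3 the centred log2 ratio of the level below over that above was 0.68 in synj1+/+ and -0.21 in synj1+/-. For TK1 it was 0.21 and -0.44.

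**Figure D4:**
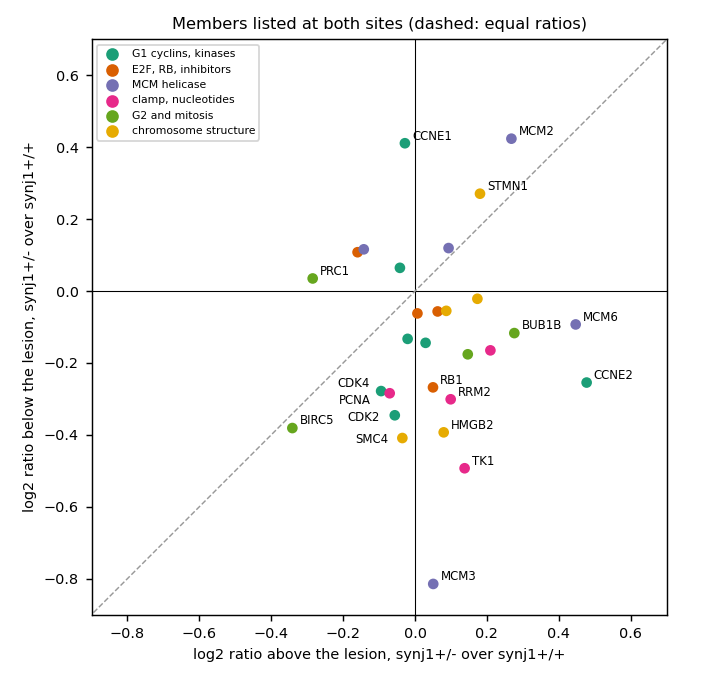
Log2 ratio of FPKM + 1, synj1+/- over synj1+/+, above the lesion (x axis) and below it (y axis) for the 29 members listed at both sites, coloured by role; the dashed line marks equal ratios. Of the 29 points, 21 lie under the line, and MCM3 lies farthest from it.

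The letters in the promoters were set beside the ratios. Below the lesion, 4 of the 6 listed members with an E2F match were lower in synj1+/-, with a median of -0.48, and of 19 with a window but no match 5 were lower and 2 higher, with a median of -0.14. Of the 7 with a CHR match, 3 were lower and 1 higher, with a median of -0.12, and of 18 without, 6 were lower and 1 higher, with a median of -0.22. Among all genes below the lesion 11.5% were lower. CDK1, lower in both match sets, and PLK1, lower in the CHR set, were listed through synj1+/+ alone and had to lean this way. Whether the letters bear on the ratios was not tested. Above the lesion, the 4 listed members with an E2F match had a median of -0.00.

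A further 153 cell cycle genes, listed by function, were split more evenly between lower and higher than the members below the lesion. Of 96 listed above, 9 were lower and 9 higher (9.38% each), with a median of 0.00. Among all genes above, 7.44% were lower and 4.18% higher. Of 89 listed below, 13 were lower (14.6%) and 10 higher (11.2%), with a median of -0.06, where 8.07% of all genes were higher. Other G2 and mitosis genes were lower in 6 and higher in 3 of 24 below the lesion (median -0.14), and lower in 2 and higher in 4 of 26 above. Most of the 6 were in the lowest level class, where 19.2% of all genes were lower, against 11.5% at all levels. The lowest of them, with 1.95 FPKM in synj1+/+ and 0.708 in synj1+/-, was listed through synj1+/+ alone and had to lean this way. Of 38 other DNA replication genes listed below the lesion, 2 were lower, 6 higher and 30 within the limit (median 0.06), where 8.07% of all genes were higher, and of 42 listed above, 5 were lower and 5 higher. None of the 11 other E2F, pocket protein and DREAM genes listed at each site was called.

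Of 16 CDK inhibitor and arrest genes listed below the lesion, 5 were lower, 10 within the limit and 1 higher (median -0.25), where 11.5% of all genes were lower. Above it, 2 of 17 were lower and 15 within the limit, where 7.44% of all genes were lower. CDKN1A (p21), the inhibitor that p53 induces, had 107 FPKM in synj1+/+ and 71.2 in synj1+/- above the lesion (-0.58) and 83.8 and 55.2 below (-0.60). GADD45A, a stress-induced growth arrest gene, had 25.3 and 16.7 below (-0.57) and 17.5 and 19.3 above (0.13). WEE1, the kinase that restrains CDK1, was higher below, with 12.0 and 15.6 (0.34), and within the limit above (0.06).

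INCENP, the scaffold of the chromosomal passenger complex to which BIRC5 belongs, was lower at both sites, with 34.1 and 18.1 FPKM above (-0.88) and 32.3 and 24.3 below (-0.39). NCAPD2, a condensin subunit, had 23.3 and 13.4 above (-0.75) and 17.2 and 18.6 below (0.11). RNASEH2A, a ribonuclease H2 subunit, had 31.7 and 18.8 above (-0.73) and 34.9 and 29.9 below (-0.22). These 2 were thus lower above the lesion and within the limit below. CDC25B, a CDK1-activating phosphatase, was higher above, with 9.79 and 13.8 (0.46), and within the limit below (-0.09). The helicase BLM was higher below, with 8.17 and 13.3 (0.64), and within the limit above (-0.02).

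Markers of cell types that can divide after injury also differed. Among all genes, 11.5% were lower below the lesion and 7.44% above it. Of the microglia and macrophage markers, 9 of 11 were lower in synj1+/- below the lesion (median -0.65), and their summed level was 4908 FPKM in synj1+/+ and 2930 in synj1+/-. Above the lesion 9 of 14 were lower (median -0.46, summed 3516 and 2503). Fibroblast and collagen matrix markers were lower in 7 of 7 below (median -2.81, summed 404 and 67.1), COL1A1 having 46.2 and 5.29, and in 6 of 8 above (median -0.50, summed 281 and 199.6).

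Astrocyte markers were lower in 2 of 7 below and 1 of 8 above, with medians of -0.18 and -0.27, and oligodendrocyte precursor markers in 0 of 6 and 1 of 7, with medians of -0.12 and -0.13. Endothelial markers had medians of -0.15 below and 0.18 above, with 1 of 7 lower below and 1 of 7 higher above. Neuron markers were higher in 3 of 9 below (median 0.22), and above the lesion 1 of 10 was lower and 0 higher (median 0.07). Ependymal markers were higher in 2 of 3 below (median 0.49). Above the lesion 1 of 3 was higher and the other 2 lay below 0 within the limit (median -0.16). Of the listed myelin markers, 3 of 3 were within the limit at both sites. Erythroid markers, which mark blood, were higher in 5 of 5 above (summed 248 and 1133) and 3 of 5 below (summed 629 and 825). Among all genes, 11.5% were lower and 8.07% higher below the lesion, and 7.44% and 4.18% above it. No marker was at 0, and the part of these cell types in the members' ratios was not tested.

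**Figure D5:**
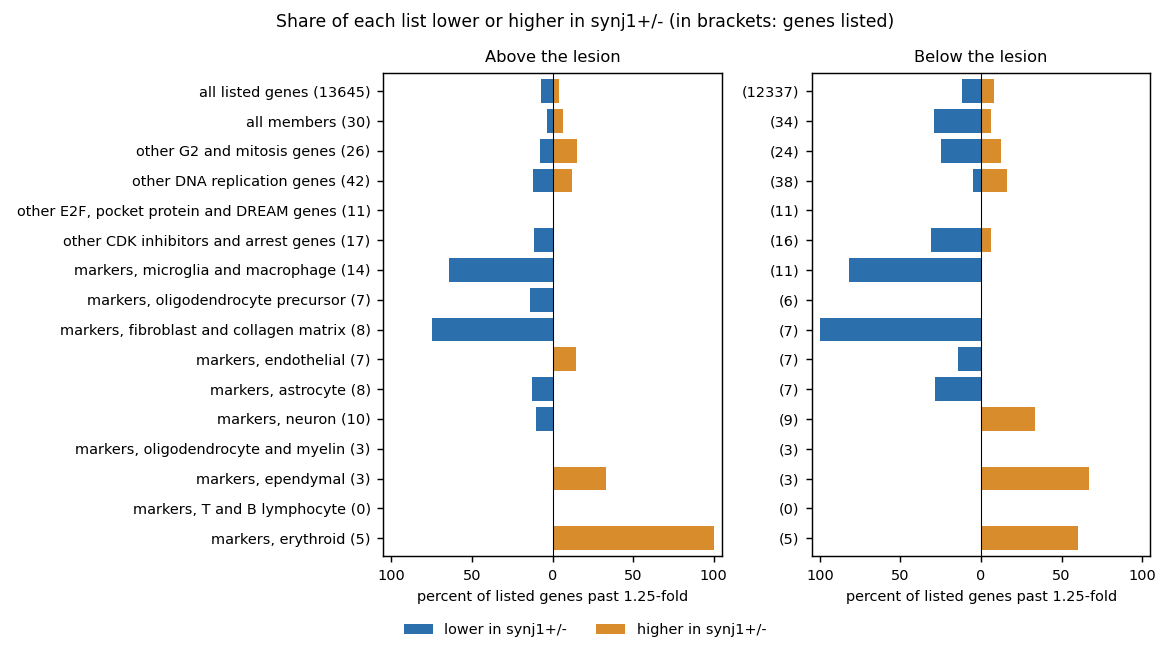
Percent of the listed genes of each list that were lower (left, blue) or higher (right, orange) past the limit in synj1+/-, above and below the lesion, with the number of genes listed in brackets. Microglia and fibroblast markers reach the left farthest at both sites, and the members reach 29.4% lower below the lesion.

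Reads from near-identical copies could touch some values. RefSeq names pseudogenes after PCNA, TYMS and CCND3 among the listed members. None of the 3 was called at either site. Pseudogenes under other names were not searched for, so such copies of called members are not excluded.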

How the data were processed

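RNA from 12 spinal cord segments, 3 a group, was sequenced. Per the labels' processing notes and the study's methods, the authors removed reads until all libraries of a site matched the smallest, aligned them with STAR 2.5.4b (build GRCm38.p6) and computed upper quartile normalised values with Cuffdiff 1.3.0. The authors' deposited table holds, per gene and site, the FPKM plus 1 of each genotype, with the 3 libraries combined (lowest value 1) and 0 columns of single samples, so the depth behind a value is not shown. Its fold change, p-value and q-value columns, and a shorter list of them, hold the authors' own comparisons and were not used.

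Group values became log2 ratios with Python 3.11.15, pandas 2.3.3 and numpy 2.4.6. With 1 value a group no test was possible, and a log2 ratio of 0.32 in size served as the limit. The ratio and call steps were run on simulated group values with set changes and no noise, which checks the arithmetic alone. Members and lists were chosen with earlier results of these data known, and support nothing as independent evidence. Named were the 42 members, SYNJ1, the first 2 genes of a marker list or its genes that were not listed, and up to 6 other cell cycle genes per direction and site with a level of at least 10. Alternatives were another pseudocount, limit, level minimum and scaling. For 3 symbols with 2 rows at a site, the row of higher level was kept. Promoter sequences came from RefSeq (GRCm38.p6), and bases after the start lay in a GENCODE transcript for 25 of the 32 members with a window.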

Additional observations from a re-analysis of the deposited data

How the results depend on the processing

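The median log2 ratio of the members above the lesion (0.05) ran from -0.02, with a mean level of at least 10, to 0.06, so its sign depended on the setting. Below the lesion (-0.15) it ran from -0.21, with that level minimum, to -0.07, with a pseudocount of 10. No member past the limit changed direction, but a pseudocount or a filter cannot change a direction and the scalings shifted ratios little. Counts moved more. Above the lesion (1 lower, 2 higher), no pseudocount gave 2 lower and 4 higher. A pseudocount of 10, a mean level of at least 10 (15 members left) and a 1.5-fold limit each gave 0 lower and 0 higher. Below the lesion (10 of 34 lower, 2 higher), a pseudocount of 10 gave 2 lower and 0 higher. A mean level of at least 10 left 16 members, of which 5 were lower and 0 higher, so the lower count fell along with the number of members. The share of all genes at that level was not computed. A 1.5-fold limit gave 4 and 0, against 4.38% of all genes lower and 1.16% higher. Of 29 members listed at both sites, 6 were lower. A larger pseudocount shrinks the ratios of low genes by construction. All 15 calls remained past the limit after centring on the median gene or rescaling to the same sum. They also did without the pseudocount, which had to be so, as dropping it enlarges every ratio. Removal of each replicate in turn was not run, because the files used hold no values of single libraries. No paired analysis was possible, although the same mice likely gave both segments, because the values carry no samples and the groups share no replicate numbers that match segments to a mouse. The low level of most members limits what these values can show.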
